A study of Homo sapiens with 16 samples.

Results

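Matricellular proteins are secreted into the extracellular matrix, where they act less as scaffold than as modulators of cell adhesion, growth factor activity and collagen assembly. Many of them are low in quiescent tissue and are made by activated fibroblasts during wound repair and fibrosis, including by hepatic stellate cells, the main matrix-producing cells of the injured liver. Their genes were examined here for changes in H3K27ac, the acetylation of lysine 27 of histone H3 that marks active promoters and enhancers. The set comprised 10 genes of the 19970 protein-coding genes on the autosomes and chromosome X, namely the glycoprotein genes FN1, TNC, POSTN, SPARC, THBS1, THBS2, SPP1, TGFBI, FBLN1 and FBLN2. It was chosen by name, and for each gene all regions with lost or gained H3K27ac were taken that touched the gene body or lay within 100 kb of its 5′ end. This rule found 27 of the 7130 regions in the deposited lists.

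The cells were LX-2, an established human hepatic stellate cell line of myofibroblastic character, so that the replicates were cultures of a single line. Control cultures received the vehicle DMSO, and treated cultures were exposed during 24 h to OSMI-1 at 50 µM. This compound, called OGTi here, blocks OGT, which places the sugar O-GlcNAc on nuclear and cytoplasmic proteins. H3K27ac was measured by chromatin immunoprecipitation and sequencing in 4 biological replicates per arm, 8 of the 16 libraries of the series, and the other 8 libraries (input DNA and column purified chromatin) were not used here.

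The values available were the positions of regions that the authors' test, over all 8 H3K27ac libraries, placed below an adjusted p of 0.15, with 3507 regions in the lost list and 3623 in the gained list. The lists hold no signal, fold change or value per library. The size of a change, its spread between replicates and the read depth behind it are therefore unknown, and a listed region is a call without a magnitude. A gene without a listed region may have unchanged H3K27ac, a change that did not pass the threshold, or no H3K27ac. Cell identity cannot be checked either, since a list of changes does not measure a level. Among the markers inspected, 5 of 8 stellate cell and myofibroblast genes, 1 of 3 hepatocyte genes, 3 of 3 endothelial genes and 3 of 3 macrophage genes had a listed region in the same window. Of all protein-coding genes, 45.0% had a listed region there.

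Counted by region, the changes at the matricellular genes were mostly losses, and most of the lost regions were at TNC (8) and FBLN2 (5). Counted by gene they were more even, with lost regions only at 4 genes and gained regions only at 3. There were 21 lost regions, covering 40.98 kb, and 6 gained regions, covering 12.35 kb. Lost regions were found at 5 of the 10 genes (TNC, FBLN2, THBS2, POSTN and THBS1), beside 21.6% of all protein-coding genes with a lost region in the same window. The lists hold changed regions only, so this background could not be limited to genes with H3K27ac in these cells. Gained regions were found at 4 of the 10 genes (SPARC, SPP1, FN1 and THBS2), beside 30.6% of all protein-coding genes. THBS2 alone had both kinds, which was so for 7.23% of protein-coding genes. TGFBI and FBLN1 had none, like 55.0% of protein-coding genes. The members span between 7.866 and 98.9 kb, and among the 12126 protein-coding genes within this range the shares were close to those over all genes, at 21.5% for lost regions, 31.5% for gained regions, 7.09% for both and 54.0% for none. At these spans the gene body lies within 100 kb of the 5′ end, so all of these genes had windows of the same width. The comparison therefore cannot show whether span within this range matters. No test was run on these counts, since the genes were chosen by name with results of these data known and neighbouring regions are not independent.

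**Figure D1:**
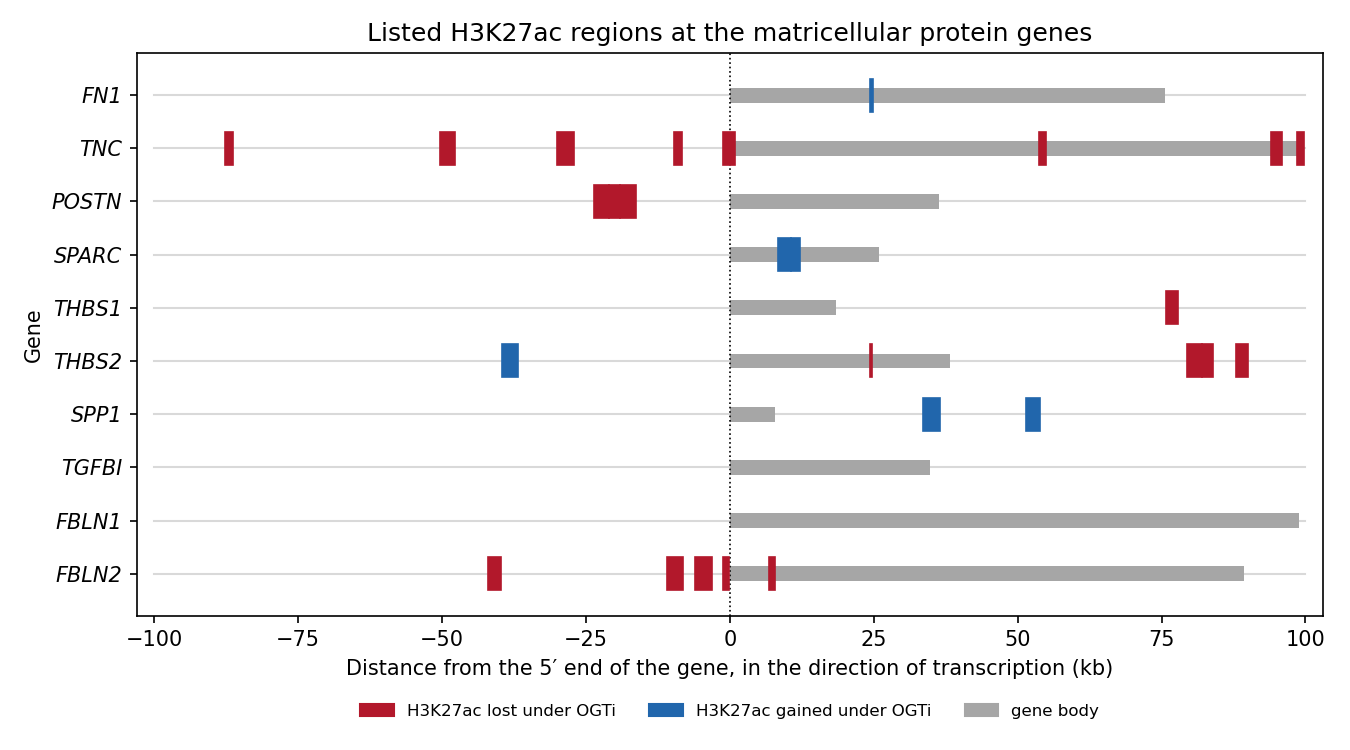
Positions of the 21 lost (red) and 6 gained (blue) H3K27ac regions at the 10 matricellular protein genes, drawn to scale against the distance from the 5′ end of each gene in kb, with upstream to the left and the gene body in grey. TNC, POSTN and FBLN2 carry lost regions only, SPARC, FN1 and SPP1 gained regions only, and TGFBI and FBLN1 none.

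The sequences at the lost and gained regions are given first for the TEAD motif, because TEAD4, a DNA-binding partner of the coactivator YAP1, is among the transcription factors that the study examined. A TEAD word was defined as CATTCC preceded by A or G and followed by A or T, on either strand. For each gene with such a word, the one closest to the 5′ end is shown in capitals with 10 flanking bases on each side, 5′ to 3′ on the strand that carries it, from hg38. They lay at chr9:115117915-115117942 (minus strand, intron 1 of TNC, 0.275 kb past the 5′ end), chr13:37615831-37615858 (minus strand, 17.0 kb upstream of POSTN), chr6:169174029-169174056 (minus strand, beyond the 3′ end of THBS2, 80004 bp from its 5′ end) and chr3:13556045-13556072 (minus strand, intron 1 of FBLN2, 6.93 kb past the 5′ end) in lost regions. In gained regions they lay at chr5:151677919-151677946 (minus strand, intron 1 of SPARC, 9.039 kb past the 5′ end) and chr6:169291814-169291841 (plus strand, 37.78 kb upstream of THBS2).
TNC, lost: tgtaaggattGCATTCCTggtaccaaat
POSTN, lost: acaattttttACATTCCTtattcagagg
THBS2, lost: gccgctagcaGCATTCCActctgatgac
FBLN2, lost: ctcagagaagACATTCCTgctagagggc
SPARC, gained: gaggggaggaACATTCCAcaagctgcct
THBS2, gained: ctatgggcccACATTCCTctcagactgt

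TNC had the most changed regions of the 10 genes. It encodes tenascin-C, a large oligomeric glycoprotein of provisional matrix that is induced in wounds and fibrotic tissue. All 8 of its listed regions were lost, and together they covered 14.88 kb. Only 39 of the 19970 protein-coding genes, 0.195%, had 8 or more lost regions in their window, and 0.148% of the genes within the members' span range. The regions were spread over the whole locus on chromosome 9 (gene 115019575 to 115118207, minus strand), with no 2 of them abutting. One lost region (115117368 to 115119312, 1945 bp) covered the 5′ end itself, from 1.105 kb upstream of it to 0.839 kb into the gene, including exon 1. Another 4 lay upstream, with their nearest edges 8.228, 27.05, 47.77 and 86.28 kb away. The gene body held a region over exon 12 of 28 (115063311 to 115064422) and another over exon 27 (115022239 to 115024225), and the last straddled the 3′ end (115018467 to 115019754). Just beyond the window, 2 abutting regions 145.0 and 147.0 kb upstream were lost too, and the nearest gained region was 221.7 kb from the 5′ end.

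Regions at TNC were examined for their assignment to this gene. For 6 of the 8 the 5′ end of TNC was the nearest of any protein-coding gene, and for the other two, at the 3′ end of the gene, it was that of TNFSF8, which encodes a ligand of the tumour necrosis factor family. TNFSF8 was also the gene with the most similar set of regions, which shared 2 of its own 4 regions with TNC. All 8 lost regions also overlapped DELEC1, a long non-coding gene of 551.7 kb on the opposite strand. The region 8.228 kb upstream also overlapped another long non-coding gene, of 18.87 kb and on the same strand as TNC. Since H3K27ac has no strand, the mark at these regions cannot be divided between TNC and the non-coding genes.

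The promoter of TNC and the lost region furthest upstream within 100 kb are shown as examples of the sequences that lost acetylation. The first sequence is the 200 bases before the annotated exons (chr9:115118208-115118407, minus strand, from the RefSeq promoter table, GRCh38.p14), all of which lay in the lost region. They had a GC content of 56.0% and 11 CpG dinucleotides, and held none of the motifs searched. The second sequence is a stretch of 104 bases (chr9:115205277-115205380, plus strand) from the region 86.28 kb upstream, in which a CArG box, the binding motif of serum response factor (SRF), and 2 AP-1 words follow each other and are shown in capitals. An AP-1 word, the motif of FOS and JUN dimers, was TGACTCA or TGAGTCA, read on either strand.
TNC promoter: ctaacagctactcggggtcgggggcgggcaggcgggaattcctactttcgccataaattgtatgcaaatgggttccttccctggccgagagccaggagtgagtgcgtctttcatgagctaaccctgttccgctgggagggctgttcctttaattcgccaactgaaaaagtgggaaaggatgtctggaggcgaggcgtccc
TNC upstream: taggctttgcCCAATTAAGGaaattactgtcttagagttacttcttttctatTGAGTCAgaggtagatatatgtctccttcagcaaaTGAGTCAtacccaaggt

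FBLN2 had 5 lost regions and none gained. It encodes fibulin-2, a glycoprotein of basement membranes and elastic fibres that binds fibronectin. The regions covered 10.03 kb, and 1.04% of protein-coding genes had 5 or more lost regions. Here the losses clustered around the 5′ end (chromosome 3, gene 13549125 to 13638422, plus strand). Their nearest edges lay 39.83, 8.069, 3.183 and 0.165 kb upstream and 6.84 kb downstream of it, the last in intron 1. The region closest to the 5′ end (13547943 to 13548960) stopped 165 bp short of it, and with a GC content of 63.4% it was the most GC-rich of the 21 lost regions. RefSeq places the start of FBLN2 further downstream, so that its promoter stretch (13568490 to 13568739 before the start) touched no listed region.

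The 5 regions at FBLN2 were also those of HDAC11, the histone deacetylase 11 gene upstream of it, whose window held the same 5 (Jaccard index, the shared regions as a fraction of all regions of both genes, 1.00). The 5′ end of FBLN2 was the nearer for 4 of them, and that of HDAC11, at 27.43 kb, for the most distal. The region 8.069 kb upstream (13538137 to 13541056) held 3 TEAD words, the highest number in any region of the set, with 2 AP-1 words. Part of it is shown (chr3:13540718-13540881, plus strand, 164 bases), with a TEAD word and an AP-1 word in capitals.
FBLN2 upstream: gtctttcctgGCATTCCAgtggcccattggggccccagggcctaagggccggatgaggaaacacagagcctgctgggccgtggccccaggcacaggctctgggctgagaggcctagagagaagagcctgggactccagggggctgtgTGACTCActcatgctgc

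POSTN had 3 lost regions and none gained. It encodes periostin, which binds collagen and integrins and takes part in collagen crosslinking. The 3 regions abutted each other in a block on chromosome 13, between 37615176 and 37622504, that covered 7.329 kb and lay 16.33 to 23.66 kb upstream of the 5′ end (gene 37562583 to 37598844, minus strand). The authors cut wide peaks into bins, and merging regions within 1000 bp left 1. No listed region touched the gene body or its 5′ end. At 3 lost regions, POSTN was among 3.83% of protein-coding genes. No other protein-coding gene had any of these regions in its window. All 3 regions held TEAD words, 4 in total, and 2 held an AP-1 word. A stretch with both is shown (chr13:37617389-37617584, plus strand, 196 bases, words in capitals).
POSTN upstream: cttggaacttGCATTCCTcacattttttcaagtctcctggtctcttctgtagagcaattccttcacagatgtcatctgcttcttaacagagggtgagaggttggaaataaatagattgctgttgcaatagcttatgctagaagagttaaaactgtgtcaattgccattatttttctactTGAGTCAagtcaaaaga

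The thrombospondin genes differed in the number of changed regions. THBS1 and THBS2 encode trimeric glycoproteins that bind CD36, CD47 and integrins and restrain angiogenesis, and thrombospondin-1 is also an activator of latent TGF-β. THBS1 (chromosome 15, 39581079 to 39599466, plus strand) had 1 lost region (39656894 to 39658932), 75.81 kb downstream of its 5′ end and far outside its short gene body. This region lay within FSIP1, a protein-coding gene on the opposite strand, although the 5′ end of THBS1 was the nearest, and 21.6% of protein-coding genes had at least 1 lost region. It held no TEAD or AP-1 word. By these lists, the promoter and gene body of THBS1 had no called change. The RefSeq promoter of THBS1, from 250 bases before to 50 after its start, holds a TEAD word, as do 4.15% of 35116 promoters in the table. Among the promoters of the 10 members it was the only one with a TEAD word. That of POSTN was the only one with an AP-1 word, which 4.95% of all promoters hold.

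THBS2 (chromosome 6, 169215780 to 169254050, minus strand) had 4 lost regions and 1 gained region, and it was the only member with changes in both directions. The gained region (169290874 to 169293596, 2723 bp) lay 36.82 kb upstream of the 5′ end. A lost region of 200 bp, the narrowest width in either list, overlapped exon 14 of 22 and intron 14 (169229423 to 169229622). Of its bases, 51 were exonic, and the long non-coding gene THBS2-AS1 lies there on the opposite strand. The other 3 lost regions were beyond the 3′ end of the gene, at 79.47, 81.97 and 87.97 kb from the 5′ end, the first and second of them abutting (169170079 to 169174581). A further lost region lay at 181.0 kb on the same side. No other protein-coding gene had these 5 regions in its window. The gain upstream and the losses downstream were thus over 100 kb apart, with the small loss in the gene body between them. The gained region held 1 TEAD word and 1 AP-1 word, and 2 of the 4 lost regions held a TEAD word.

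SPARC had 2 gained regions and none lost. It encodes a collagen-binding glycoprotein also known as osteonectin. The regions abutted (chromosome 5, 151674817 to 151678573, 3.757 kb in all) and lay in the first part of the gene (151661096 to 151686975, minus strand), 8.402 to 12.16 kb past the 5′ end. They spanned parts of introns 1 and 2 and 70 bp of exon 2. Merging left 1 region, and 10.4% of protein-coding genes had 2 or more gained regions. Both held TEAD words, 3 in total, and none held an AP-1 word. No lost region lay within 1041 kb of the 5′ end. The same 2 regions fell in the window of G3BP1, which encodes a stress granule protein, but the 5′ end of SPARC was the nearest. The region closer to that 5′ end also overlapped CLMAT3, a long non-coding gene of 48.53 kb on the opposite strand. The mark there cannot be divided between SPARC and CLMAT3.

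FN1 had 1 gained region, in intron 13 (chromosome 2, 215411255 to 215411764, 510 bp), 24.31 kb past the 5′ end of the gene (215360440 to 215436073, minus strand). Fibronectin, its product, forms the fibrillar provisional matrix on which collagen is deposited. At least 1 gained region was found at 30.6% of protein-coding genes, so a single one is near the background. It held none of the motifs searched, its GC content was the lowest of all 27 regions at 32.9%, and no lost region lay within 256.5 kb. The window of ATIC, a purine synthesis gene, held the same region.

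SPP1 had 2 gained regions, but both lay inside a neighbouring gene. SPP1 encodes osteopontin, a ligand of integrins and CD44. The regions (chromosome 4, 88009141 to 88012089 and 88027162 to 88029571) were 33.47 and 51.49 kb downstream of the SPP1 5′ end (gene 87975667 to 87983532, plus strand), in the body of PKD2, the polycystin-2 gene. Their distance to the 5′ end of PKD2 was 1.506 and 19.53 kb, and PKD2 had the same set (Jaccard index 1.00). When each region was given to the protein-coding gene with the nearest 5′ end, SPP1 had none.

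TGFBI and FBLN1 had no listed region. TGFBI encodes a TGF-β-induced protein that binds collagen and integrins, and FBLN1 encodes fibulin-1, a partner of fibronectin. The nearest lost and gained regions were 942.6 and 641.1 kb from the 5′ end of TGFBI (chromosome 5, 136028988 to 136063818), and 422.8 and 169.4 kb from that of FBLN1 (chromosome 22, 45502238 to 45601135). FBLN1 thus differed from its paralog FBLN2, which had 5 lost regions. With the 5′ ends of all annotated transcripts in place of that of the gene record, FBLN1 also had 1 gained region in its window.

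Counted over all protein-coding genes, the members held quite different ranks by number of lost regions. TNC had 8, and FBLN2 (5), THBS2 (4) and POSTN (3) followed, against shares of 1.04%, 1.99% and 3.83% of genes with as many or more. THBS1 had 1, as did, with 1 or more, 21.6% of genes. By gained regions, none of the members reached 3, a number met by 3.81% of protein-coding genes.

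**Figure D2:**
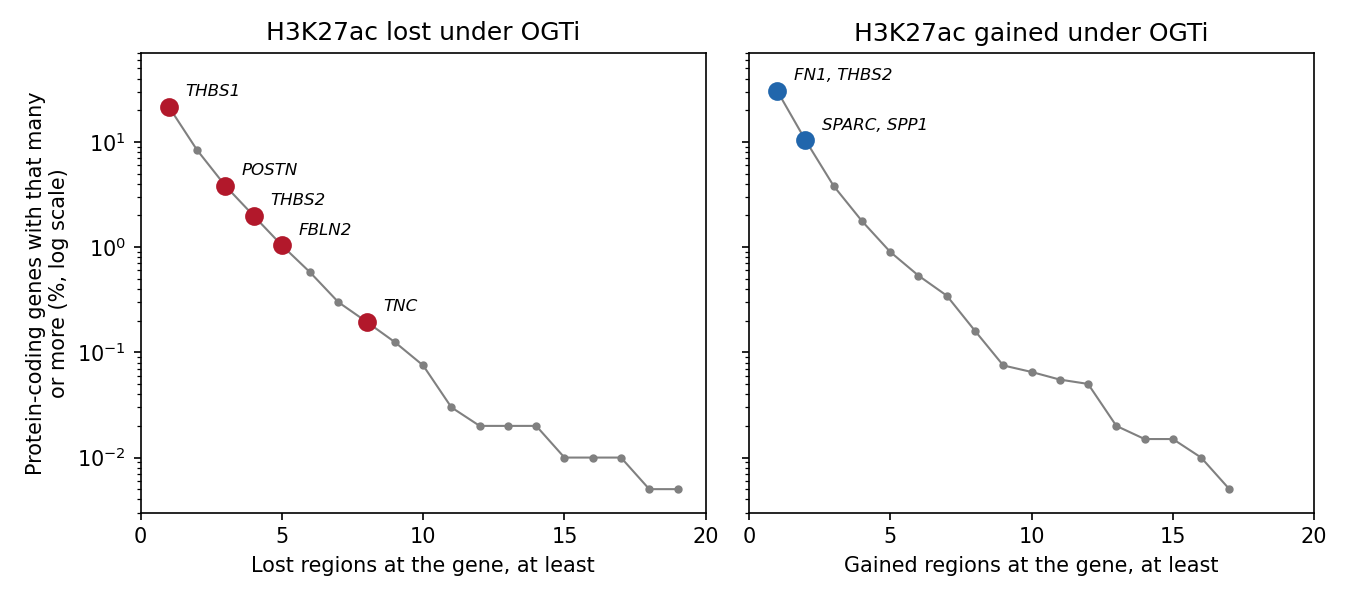
Percentage of the 19970 protein-coding genes (log axis) with at least the number of lost (left) or gained (right) regions on the horizontal axis, in the gene body or within 100 kb of the 5′ end. Grey points are all genes and coloured points the members, from THBS1 (21.6% of genes with 1 or more lost regions) to TNC (0.195% with 8 or more).

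The position of the regions differed between the genes. Among the 21 lost regions, 11 lay upstream of the 5′ end (TNC, POSTN and FBLN2), 6 overlapped the gene body and 4 lay beyond the 3′ end. Of the 6 gained regions, 3 overlapped the gene body, 1 lay upstream and 2 beyond the 3′ end. A lost region covered the 5′ end or came within 2500 bp of it at 2 of the 10 genes (TNC and FBLN2), against 1.96% of protein-coding genes, and a gained region at none, against 6.41%. At FBLN2 the loss was near the 5′ end of the gene record, whereas its RefSeq promoter stretch touched no listed region. The member's own 5′ end was the nearest protein-coding one for 18 lost regions and for 4 gained ones. Exons of the member were touched by 5 lost regions (4 at TNC and 1 at THBS2) and by 1 gained region (SPARC).

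The lost regions of the set had medians within the quartiles of all lost regions in width and base composition, whereas the medians of the gained regions lay outside those of all gained regions in width and CpG ratio. The lost regions had a median width of 2000 bp (range 200 to 3039), compared with 1905 bp over all lost regions (quartiles 1294 and 2305). Their median GC content was 46.3% (range 35.3% to 63.4%), and 46.8% over all lost regions (quartiles 41.9% and 53.7%), with the lowest values at POSTN and the highest at FBLN2. Their median CpG observed/expected ratio was 0.184, against 0.202 over all lost regions (quartiles 0.146 and 0.274). The 6 gained regions had a median GC content of 42.3%, a CpG ratio of 0.151 and a median width of 2329 bp. The medians over all gained regions were 46.1% (quartiles 40.3% and 56.5%), 0.247 (0.162 and 0.649) and 1697 bp (1098 and 2100). The median width at the members was thus above the upper quartile, and the median CpG ratio below the lower quartile.

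TEAD words were found in 14 of the 21 lost regions (66.7%), with 42.9% over all 3507 lost regions, and in 3 of the 6 gained regions, with 27.5% over all 3623. With regions within 1000 bp merged, which joined the abutting regions of SPARC, they were in 12 of 18 lost and 2 of 5 gained regions. Wider regions hold more words by length alone. Per 10 kb, the lost regions of the set had 4.15 words against 3.24 over all lost regions, and the gained regions 3.24 against 2.07. In the central 1000 bp, a fixed length, 8 of 20 lost regions of the set held a word and 33.0% of all lost regions, as did 3 of 5 gained regions and 18.4% of all gained regions. The shorter core CATTCC was in 19 of the 21 lost regions (90.5%, with 73.5% over all) and, in the central 1000 bp, in 15 of 20 (61.2% over all). Per 10 kb it was no denser in the set than over all lost regions (8.54 against 8.62). The words were distributed over 6 of the 8 regions of TNC, all 3 of POSTN, 3 of 5 of FBLN2 and 2 of 4 of THBS2.

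AP-1 words were present in 12 of the 21 lost regions (57.1%, with 42.6% over all lost regions), at 3.66 per 10 kb against 3.23. In the central 1000 bp, 6 of 20 held a word, with 32.5% over all lost regions, so that no excess was seen at a fixed length. TNC had 7 and FBLN2 5 of the 15 words. In 9 of the 21 lost regions TEAD and AP-1 words occurred together, whereas 20.3% of all lost regions held both. Of these 9, TNC had 5, and 17 of the 21 held at least 1 of the 2 kinds, with 65.3% over all. These joint counts were taken over whole regions, which differ in width. Among the gained regions, 3 of 6 held an AP-1 word, at SPP1 and THBS2, with 39.6% over all gained regions. Per 10 kb they had 2.43 words against 3.51 over all gained regions. In the central 1000 bp, 1 of 5 held a word, with 33.2% over all.

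The other motifs were rare. CArG boxes were found in 2 lost regions, both at TNC, and in 1 gained region of SPARC (14.7% of all lost and 7.76% of all gained regions). The word of the ATF4-C/EBP composite, TGAT followed by GCAA, was found in 1 lost region at POSTN and in none of the gained regions, where 10.1% of all gained regions hold it. The SMAD word, GTCT followed by AGAC, occurred once, in the FBLN2 region 3.183 kb upstream (1.25% of all lost regions). A match is a description of the letters and does not show binding.

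**Figure D3:**
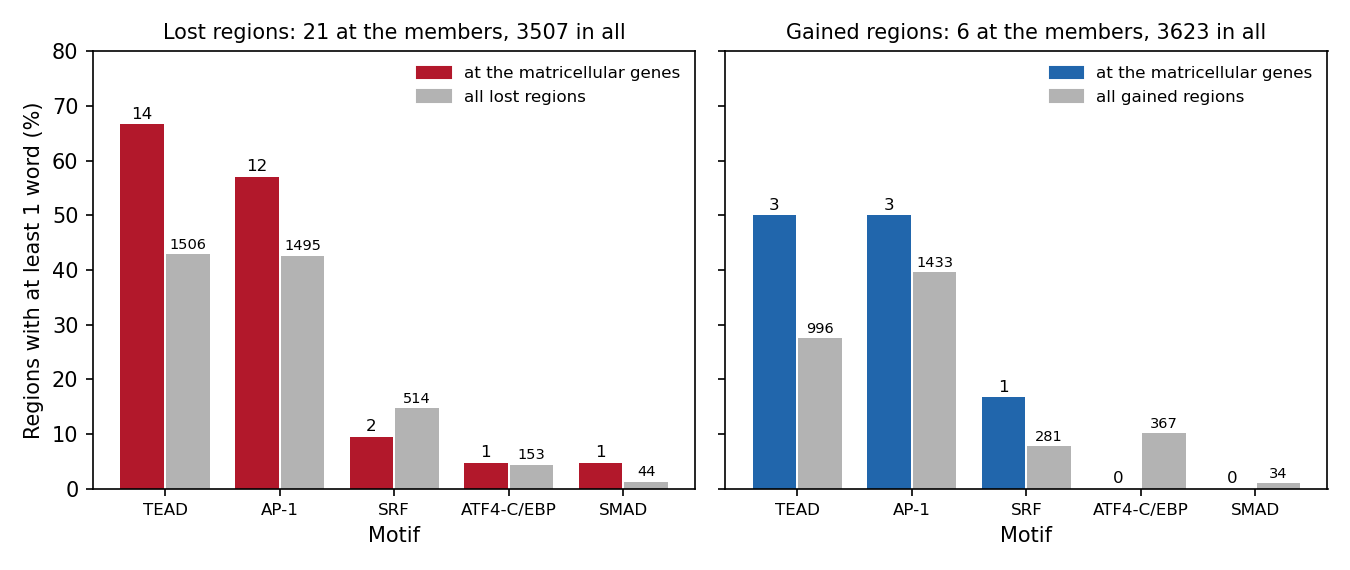
Percentage of regions with at least 1 word of each motif, for lost (left) and gained (right) regions, with coloured bars for the regions at the matricellular genes (21 lost, 6 gained), grey bars for all listed regions of that direction, and the number of regions above each bar. TEAD words were in 14 of 21 lost regions and AP-1 words in 12 of 21.

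Genes related to the 10 were taken from 3 lists to see whether losses extended to them. Of 28 other matricellular and related glycoprotein genes, 6 had a lost region (21.4%) and 11 a gained region (39.3%), and 14 had none. FSTL1, which encodes a secreted SPARC-related protein, had 5 lost regions together with 2 gained regions at its 5′ end. SPOCK1, a SPARC-related proteoglycan gene of 623.1 kb, had 5 lost and 1 gained, and CCN5, of the connective tissue growth factor family, had 4 lost, 2 of them with its 5′ end as the nearest. EFEMP2 (fibulin-4) had 6 gained regions in its window, each of which was nearer to the 5′ end of another gene. THBS3 had 2 gained, 1 of them with its own 5′ end as the nearest. CCN1 had 1 lost and 1 gained region, while CCN2, the connective tissue growth factor gene, had none (both were named after their values were seen). The share with a lost region was near the background of 21.6% and that with a gained region lay above 30.6%, and 22 of the 28 genes had no lost region.

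Of 22 receptor genes for matricellular proteins, 8 had a lost region (36.4%, with 21.6% over all protein-coding genes) and 7 a gained region (31.8%, with 30.6%), and 12 had none. The hyaluronan and osteopontin receptor gene CD44 had 4 gained regions, 1 of them at its 5′ end, and none lost. Among the integrin genes, ITGA2 had 3 gained regions, ITGB5 3 lost and 2 gained, and ITGA10 1 lost. The 5′ ends of ITGA5 and ITGB1, whose products form the main fibronectin receptor, each had 1 lost region. ITGA5 also had 3 gained regions and ITGB1 had 1, away from their 5′ ends (both genes were named after their values were seen). CD36, a thrombospondin receptor gene, had 1 lost and 3 gained regions. Of 18 genes for enzymes and inhibitors that process or crosslink these proteins, 6 had a lost region (33.3%, with 21.6% over all protein-coding genes) and 10 a gained region (55.6%, with 30.6%). TLL1, a tolloid protease gene, had 4 lost regions, LOXL2, a lysyl oxidase gene, 4 lost and 2 gained, and the gelatinase gene MMP2 had 3 lost. The most gained regions were at TIMP1, an inhibitor of metalloproteinases (5), and at ADAMTS4 and PLAT, which encode an aggrecanase and the tissue plasminogen activator (4 each). At TIMP1 and PLAT each of these was nearer to the 5′ end of another gene. The gene's own 5′ end was the nearest for 1 region each at ADAMTS4, MMP2, ITGB5 and CD36. At LOXL2 and ITGA5 it was the nearest for 2 regions each. This held for all regions of TLL1, ITGA2, CD44 and ITGB1, and for none of ITGA10.

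**Figure D4:**
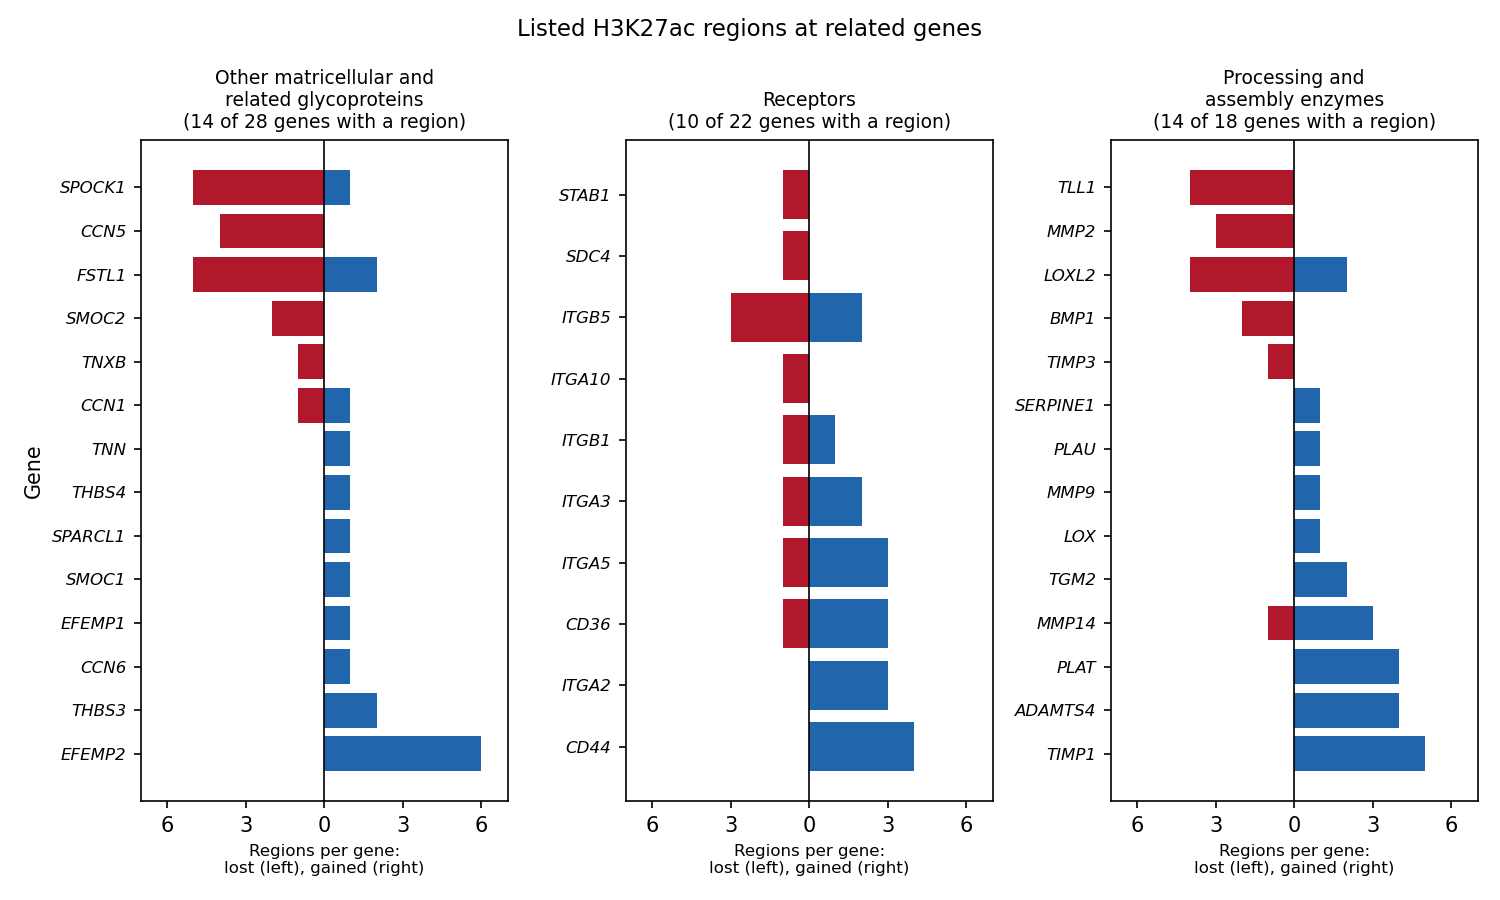
Number of lost (red, to the left) and gained (blue, to the right) regions in the gene body or within 100 kb of the 5′ end, for the genes with at least 1 region in 3 lists of related genes. Regions were found at 14 of 28 glycoprotein genes, 10 of 22 receptor genes and 14 of 18 enzyme and inhibitor genes.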

How the data were processed

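According to the study's methods, reads were mapped by the authors with Chromap (build hg38), and MACS2 (version 2.1.1.20160309 in the submitters' processing notes) found peaks per library relative to input DNA, after removal of duplicates and blacklisted regions. MAnorm2 then divided peaks into bins and compared 4 OGTi with 4 control H3K27ac libraries. The 2 deposited lists give chromosome, start and end of each region. Wide peaks can thus appear as abutting regions. The list names state an adjusted p of 0.15 and the methods text a stricter one. No column of the lists was left unused.

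Starts were converted to count from 1, and every region lay within the hg38 sequence. Genes came from GENCODE release 44 (62700 genes) on the same build, a later release than the study's. The 5′ end was that of the gene record, and a region belonged to a gene when any base touched the gene body or the 100 kb on either side of the 5′ end. The 11 lost regions on the mitochondrial genome or an unplaced contig were kept in the totals. Motif words were searched on both strands, and overlapping matches of different motifs were all counted. RefSeq promoters matched all 10 members. Wilson 95% intervals were computed for shares of genes, for example 21.1% to 22.2% around 21.6%. Analysis used Python 3.11.15, NumPy 2.4.6 and SciPy 1.17.1, and region placement and motif search were tested on simulated data.

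The members, the lists of related genes and the motifs were chosen with earlier results of these data known. All members are named, as are, per related list and direction, the 3 genes with the most regions (ties by symbol), the protein-coding gene with the most similar regions and genes with the nearest 5′ end. The sequences shown are the TEAD word nearest to each 5′ end and, chosen after the data were examined, stretches in which words of different motifs lie within 200 bp, of which 1 is not reported here. No significance test was run. Alternatives varied the window, the overlap rule, the 5′ ends, merging, assignment to the nearest gene and the TEAD search.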

Additional observations from a re-analysis of the deposited data

How the results depend on the processing

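No paired analysis was possible because positions were the sole content of both lists, without measurements of single libraries. Thus neither leaving out a replicate nor a stricter threshold could be run, and the effect of read depth is unknown. Of 62 values recomputed, 40 stayed within 1.5 times the count, or within the 95% interval of the share, and 22 moved. The main counts were 21 lost and 6 gained regions, 5 members with a lost and 4 with a gained region. With the gene body alone they were 6, 3, 3 and 2, and with the gene body and 2500 bp they were 7, 3, 3 and 2. The share of protein-coding genes with a lost region was 14.0% with 50 kb, 34.9% with 200 kb, 6.94% with 2500 bp, 6.63% in the gene body, 23.3% with the 5′ ends of all transcripts and 8.11% with the nearest gene only. That with a gained region was, in the same order, 20.7%, 46.3%, 11.3%, 10.9%, 32.6% and 10.7%. TEAD words were in 8 lost regions in the central 1000 bp, where the single narrower region was searched whole, and in 4 of 6 lost regions in the gene bodies. TNC kept the most lost regions of the members under all alternatives run.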
